A study of Mus musculus with 4 samples.

Results

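The potassium channel genes are described here in cerebellar tissue of mice that lack 1 functional copy of *Kdm3b*, a histone demethylase gene. The members were taken by name: every gene identifier whose mouse symbol begins with Kcn, except for 1 gene that is not reported, which gave 97 of the 24532 identifiers in the tables. By symbol, 40 of them encode voltage-gated pore-forming subunits, 8 calcium- or sodium-activated channels, 14 inward rectifiers, 14 two-pore channels and 16 auxiliary subunits. The 5 others are *Kcnrg* and 4 RNAs named after a channel gene that they lie beside or opposite to (*Kcnd3os*, *Kcnmb4os1*, *Kcnmb4os2* and *Kcnq1ot1*). Bulk RNA was sequenced from 2 WT and 2 *Kdm3b*+/- mice, each giving 1 library of the microdissected granule cell layer of the cerebellar vermis (granule-cell-enriched, GCE). The animals were adult males more than 7 weeks old, the WT mice being littermates. The line had been backcrossed to C57Bl/6N and then crossed several times to C57Bl/6J, and the sources used here name no treatment of the sequenced mice. The *Kdm3b*+/- mice carry a gene trap vector in an intron of 1 *Kdm3b* allele, introduced through a single embryonic stem cell line. The allele is present in every cell of the body, so the genotype is not restricted to granule cells.

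Potassium channels let potassium ions leave the cell, which repolarizes the membrane after an action potential and sets the resting potential. Voltage-gated channels open on depolarization, calcium-activated channels follow the calcium that enters during firing, and inward rectifiers and two-pore channels hold the membrane near rest. In the cerebellum, fast-gating channels of the Kcnc family are known for high-frequency firing, A-type channels of the Kcnd family with their Kcnip partners for the timing of granule cell spikes, and two-pore leak channels for the low excitability of granule cells.

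The sequences just before the start sites of 4 members are shown because these members span the results: *Kcne1l* had the lowest p-value of the potassium channel genes, *Kcnc1* and *Kcnc4* are voltage-gated members that were lower in both *Kdm3b*+/- mice, and *Kcnk1* had the highest level. They are the 250 bases before the start, 5′ to 3′ on the strand of the gene, from RefSeq on GRCm38.p6: chrX:142306199-142306448 (minus strand) for *Kcne1l*, chr7:46396218-46396467 (plus strand) for *Kcnc1*, chr3:107458899-107459148 (minus strand) for *Kcnc4* and chr8:125994852-125995101 (plus strand) for *Kcnk1*. Capitals mark the GC box, GGGCGG or CCGCCC on the other strand.
Kcne1l: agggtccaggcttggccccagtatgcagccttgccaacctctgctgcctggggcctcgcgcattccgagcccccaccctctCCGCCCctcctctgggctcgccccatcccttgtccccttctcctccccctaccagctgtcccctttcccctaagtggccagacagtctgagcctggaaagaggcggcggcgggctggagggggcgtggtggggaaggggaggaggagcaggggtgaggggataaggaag
Kcnc1: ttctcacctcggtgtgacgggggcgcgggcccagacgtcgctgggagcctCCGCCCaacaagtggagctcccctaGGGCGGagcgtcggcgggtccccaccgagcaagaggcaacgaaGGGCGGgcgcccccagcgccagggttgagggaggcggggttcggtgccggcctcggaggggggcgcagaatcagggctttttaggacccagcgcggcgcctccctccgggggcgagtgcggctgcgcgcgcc
Kcnc4: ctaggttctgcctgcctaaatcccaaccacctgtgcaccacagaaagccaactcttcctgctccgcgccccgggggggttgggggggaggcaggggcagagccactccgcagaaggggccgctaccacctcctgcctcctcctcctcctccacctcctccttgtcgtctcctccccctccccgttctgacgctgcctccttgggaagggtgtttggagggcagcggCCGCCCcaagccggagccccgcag
Kcnk1: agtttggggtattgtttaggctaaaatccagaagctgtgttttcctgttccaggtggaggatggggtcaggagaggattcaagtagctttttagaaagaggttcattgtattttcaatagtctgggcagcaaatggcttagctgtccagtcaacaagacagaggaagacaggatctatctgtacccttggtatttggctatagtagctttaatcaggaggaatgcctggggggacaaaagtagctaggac
The *Kcnc1* sequence held 3 GC boxes and 30 CpG dinucleotides, and those of *Kcne1l* and *Kcnc4* held 1 GC box each with 9 and 12 CpG dinucleotides. The *Kcnk1* sequence held neither a GC box nor a CpG dinucleotide. RefSeq gave 96 such windows for 71 of the 97 members, and 43.8% of them held a GC box on either strand, compared with 32.7% of the 32851 windows of all genes. The letters TATAAA or TTTATA were in 3.12% of the members' windows and in 12.4% of all windows. Median GC content was 58.6% in the members' windows and 52.4% in all windows, and its part in both motif shares was not tested. The motif shares are a description of the windows, which members with several start sites enter more than once.

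The depth of the 4 libraries, computed from the deposited coverage and FPKM, ranged from 4.92 to 6.69 gigabases of aligned sequence. *Kdm3b* itself was at 9.10 and 11.0 TPM (a transcript level scaled to its length and to the library total) in WT and at 8.30 and 7.90 TPM in *Kdm3b*+/- mice, a log2 difference of -0.27 (SE 0.17) that did not pass the test of the whole table (limma, adjusted p = 0.424). The *Kdm3b* value was -0.15 without WT mouse 2 and -0.13 after a correction for transcript length and GC content. The lists of cell type markers were all detected, with no marker at 0 in all 4 libraries. Summed TPM of the 11 granule cell markers, all tested, was 6781 and 8256 in WT and 6679 and 7196 in *Kdm3b*+/- mice, with 2 lower at an unadjusted limma p under 0.05, a threshold that 17.0% of all tested genes met. The 12 Purkinje cell markers summed to 1652 TPM in WT mouse 1 and to 738, 928 and 751 TPM in WT mouse 2 and the *Kdm3b*+/- mice, so that WT mouse 1 stood apart; all 11 tested markers had a fitted value below 0, and 4 had an unadjusted p under 0.05. The astrocyte and Bergmann glia markers were at 3735 to 4588 TPM in WT and 3037 to 3296 TPM in *Kdm3b*+/- mice, with 2 of 10 higher and 4 lower at an unadjusted p under 0.05. Most of these sums was the single marker *Aldoc*, at 3146 and 2468 TPM in WT and 2134 and 1824 TPM in *Kdm3b*+/- mice. The interneuron markers were at 178 to 229 TPM in WT and 160 to 163 TPM in *Kdm3b*+/- mice, with 1 higher and 2 lower of 8 tested. Sums of the oligodendrocyte (16044 to 17547 against 14888 to 17795 TPM), microglia (179 to 183 against 182 to 202 TPM) and endothelial markers (115 to 126 against 101 to 132 TPM) overlapped between genotypes, with 1 higher and 1 lower of 8, 1 higher of 7 and 1 lower of 5 tested. The mural cell markers were at 153 to 156 against 159 to 190 TPM, with 1 higher of 5. Of the markers, the astrocyte gene *Aqp4* (log2 difference 1.10; limma, adjusted p = 0.033) and the oligodendrocyte gene *Mobp* (-0.93; adjusted p = 0.0133) passed the adjusted test. Since RNA was taken from tissue, fewer cells of a type and less RNA per cell cannot be told apart, and the part of these marker differences in the values of the potassium channel genes was not tested.

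Of the 97 potassium channel genes, 81 were above 0 in all 4 libraries and 56 had a mean of at least 1 TPM. The mean reached 10 TPM in 33 members and 100 TPM in 7 of them. *Kcnk1*, a two-pore leak channel subunit, had the highest level at 610 and 757 TPM in WT and 749 and 646 TPM in *Kdm3b*+/- mice. It ranked at position 181 among all genes. *Kcnc1*, a fast-gating voltage-gated subunit, was next at a mean of 180 TPM, followed by *Kcnip4*, *Kcnj9*, *Kcnmb4*, *Kcnd2* and *Kcnip3* between 148 and 103 TPM. *Kcnip4* and *Kcnip3* encode cytoplasmic partners of the Kcnd channels, *Kcnj9* a G protein-gated inward rectifier, and *Kcnmb4* the neuronal beta subunit of the large-conductance calcium-activated channel. The 5 highest members together held 50.2% and 50.5% (WT), and 52.6% and 48.8% (*Kdm3b*+/-), of the summed potassium channel TPM. Potassium channel genes that passed the filter of 1 TPM were somewhat lower than other genes, with a median level of 14.0 TPM compared with 19.0 TPM over all 13652 genes tested.

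**Figure D1:**
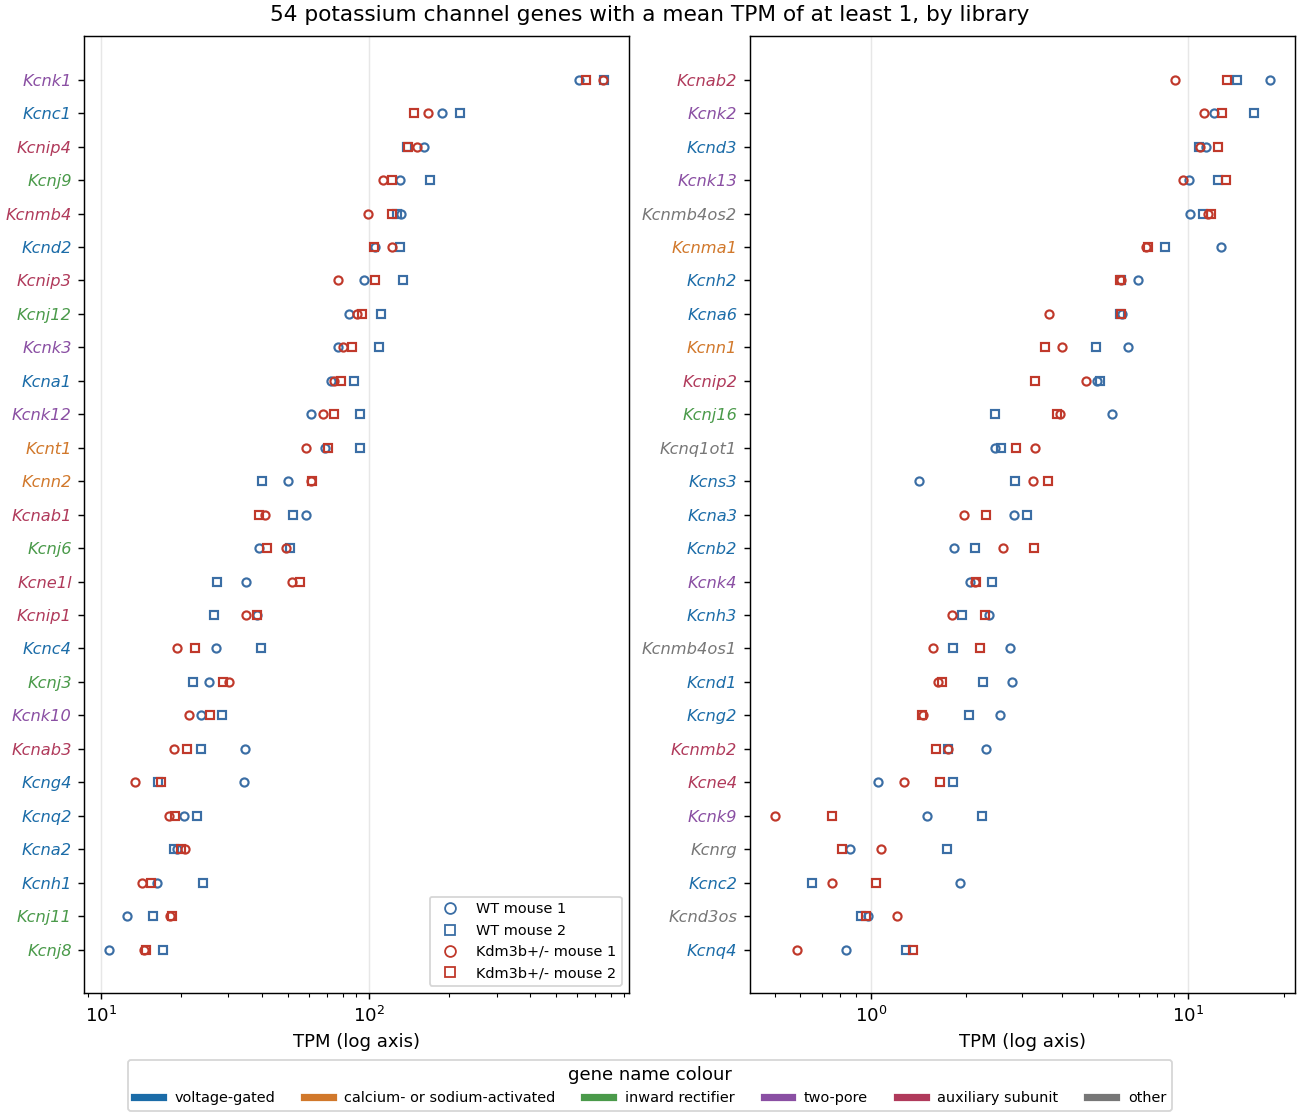
Level of 54 potassium channel genes with a mean of at least 1 TPM in the 4 libraries, in TPM on a log axis, ordered by the mean and split over 2 panels with their own axes. Circles are mice 1 and squares mice 2 of each genotype, blue for WT and red for *Kdm3b*+/-, and *Kcnk1* lies far to the right of the rest at 610 to 757 TPM.

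The 41 members below the filter reached no more than 0.941 TPM in any library. Of these, 6 were listed at 0 in all libraries: *Kcna7*, *Kcne1*, *Kcne3*, *Kcng3*, *Kcnj1* and *Kcnk16*. The genotypes overlapped in 26 of the 41, were lower in both *Kdm3b*+/- libraries in 12 and higher in 3, and none of them was tested. The 35 that were above 0 in any library were lower in 34.3% and higher in 8.57%, compared with 15.1% and 13.9% of the 5530 such genes of the whole table, which were not matched to the members for level. Among the members below the filter were *Kcnj2*, a classical inward rectifier, at 0.257 to 0.565 TPM, the M-current subunits *Kcnq3* and *Kcnq5* at 0.051 to 0.260 TPM, and the calcium-activated *Kcnn3* at 0.652 to 0.733 TPM.

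The comparison of *Kdm3b*+/- with WT mice asks which transcripts differ when 1 copy of the demethylase gene is lost. No potassium channel gene was differentially expressed (DEX; limma, adjusted p under 0.05 over 13652 genes and a fold change over 1.2): 0 of 56 tested members were called, where 0.461% of all tested genes were (0.117% higher and 0.344% lower). The lowest adjusted p of a member was 0.103 in the same limma fit, for *Kcne1l*. At an unadjusted limma p under 0.05, 10 of the 56 members were counted, 2 higher and 8 lower in *Kdm3b*+/- mice. This is 17.9% of the members and close to the 17.0% counted among all tested genes, of which 5.47% were higher and 11.5% lower. The split by direction depended on the scaling. With FPKM in place of TPM, 6 members were higher and 4 lower of 44 tested, against 16.9% of all tested genes. With median-ratio scaling or quantile normalization, 6 were higher and 5 lower of 56, against 16.5% and 15.7%. After a correction for transcript length and GC content, 5 were higher and 3 lower of 54, against 15.3%. These shares of all genes are not split by direction. Without WT mouse 1, the count was 16 members, 5 higher and 11 lower, against 25.5% of all tested genes, and without *Kdm3b*+/- mouse 1 it was 4 members against 7.35%. The genotypes did not overlap in 27 of the 56 members (48.2%), which were higher in 9 and lower in 18, and they did not overlap in 51.3% of all tested genes (19.2% higher and 32.0% lower). With 2 mice against 2, an exact permutation test of a single gene cannot give a two-sided p below 0.33.

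The median log2 fold change over the 56 members was -0.11, compared with -0.07 over all tested genes. By class, the median was -0.22 for the voltage-gated subunits, -0.37 for the 4 tested calcium- or sodium-activated channels, 0.03 for the inward rectifiers, -0.11 for the two-pore channels and -0.23 for the auxiliary subunits. The medians moved when single libraries were left out: without *Kdm3b*+/- mouse 1 the voltage-gated median was -0.11 and the auxiliary median -0.11, without WT mouse 1 the inward rectifier median was -0.16, and without WT mouse 2 the two-pore median was 0.08. Members also varied more between the 2 WT mice than other genes did, with a median log2 range of 0.31 compared with 0.19, whereas the ranges in *Kdm3b*+/- mice were 0.15 and 0.14.

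**Figure D2:**
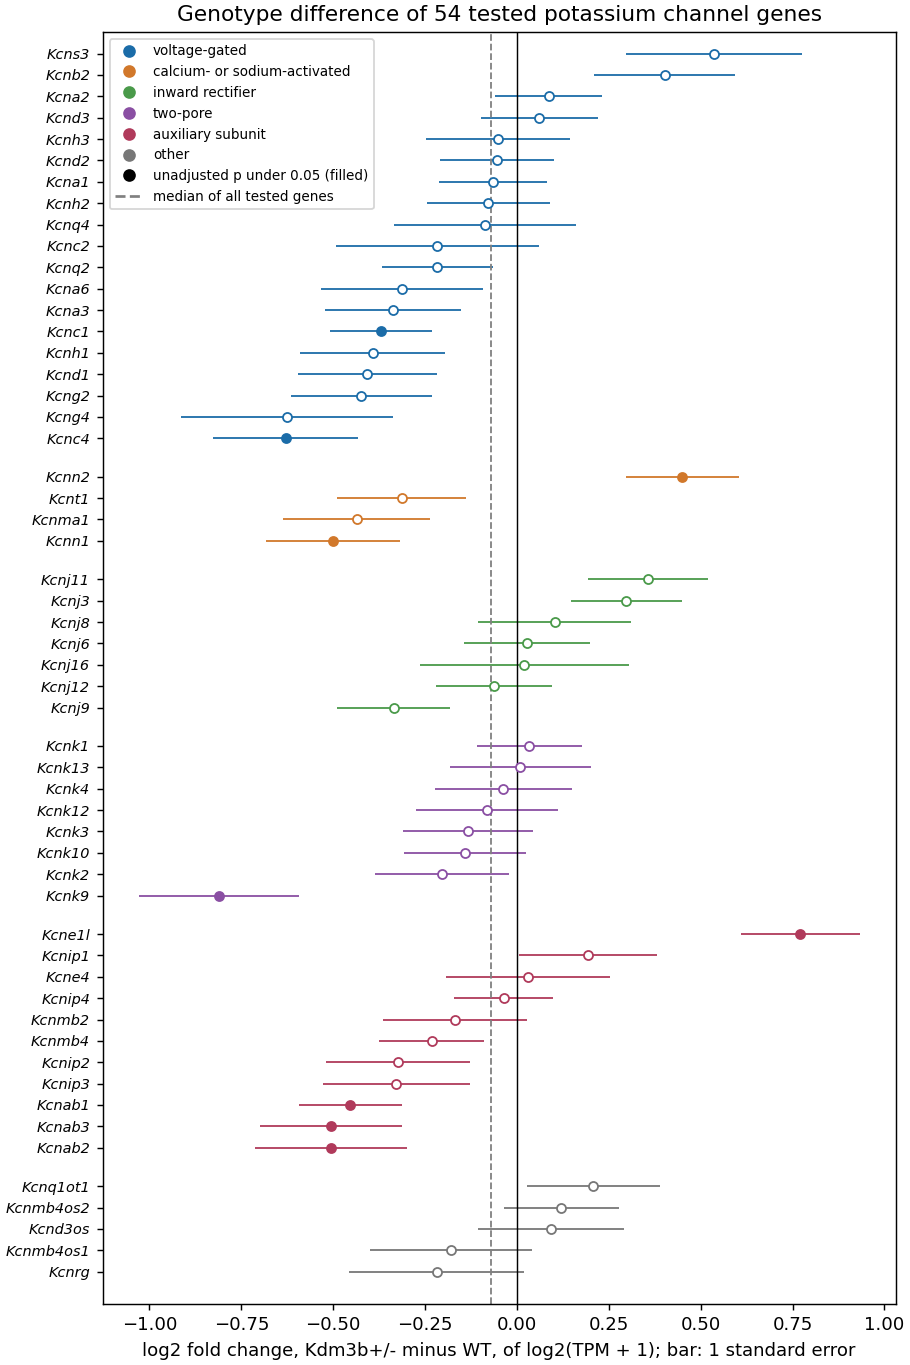
Fitted log2 fold change of 54 tested potassium channel genes, *Kdm3b*+/- minus WT, on the scale of log2(TPM + 1), grouped by class; bars are 1 standard error and filled points have an unadjusted p under 0.05. The 9 filled points are 2 to the right of 0 (*Kcnn2* and *Kcne1l*) and 7 to the left, and the dashed line marks the median of all tested genes at -0.07.

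Among the voltage-gated subunits, *Kcnc1* and *Kcnc4* of the Kcnc family were lower in both *Kdm3b*+/- mice than in either WT mouse. This family encodes the Kv3 channels, whose fast opening and closing shortens action potentials. *Kcnc1* (chr7:46396468-46438704 in the deposited tables, whose positions mostly match GRCm38.p6) was at 188 and 219 TPM in WT and at 167 and 147 TPM in *Kdm3b*+/- mice. The *Kdm3b*+/- mice were both under the lower WT mouse, with a log2 difference of -0.37 (SE 0.14; limma, unadjusted p = 0.0267, adjusted p = 0.246). The difference of *Kcnc1* was -0.26 without WT mouse 2 and -0.48 without WT mouse 1. Its unadjusted limma p was 0.0593 with FPKM, 0.0702 with median-ratio scaling and 0.0217 with quantile normalization. *Kcnc4* (chr3:107438303-107458898), whose channels inactivate quickly, was at 27.0 and 39.8 TPM in WT and at 19.3 and 22.5 TPM in *Kdm3b*+/- mice. Its log2 difference of -0.63 (SE 0.20; limma, unadjusted p = 0.0108, adjusted p = 0.189) came with a wide gap between the WT mice, and it was -0.36 without WT mouse 2 and -0.90 without WT mouse 1. Their relative *Kcnc2* was near the filter at 1.91 and 0.654 TPM in WT and 0.752 and 1.04 TPM in *Kdm3b*+/- mice, where the groups overlapped. After a correction for transcript length and GC content, the log2 difference was -0.38 for *Kcnc4*, with an unadjusted p under 0.05, and -0.25 for *Kcnc1*, with an unadjusted p above 0.05.

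**Figure D3:**
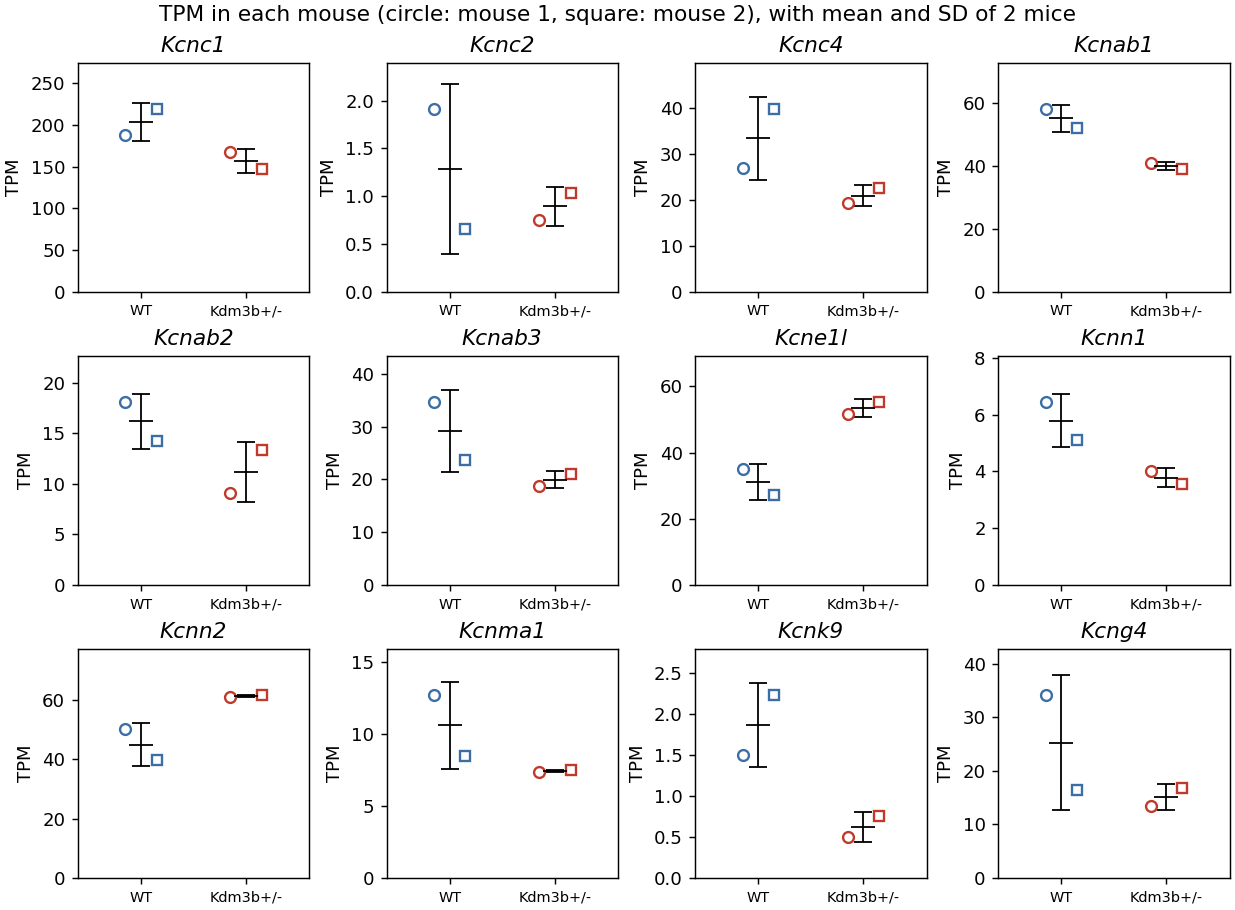
TPM in each mouse for *Kcnc1*, *Kcnc2*, *Kcnc4*, the 3 Kcnab genes, *Kcne1l*, *Kcnn1*, *Kcnn2*, *Kcnma1*, *Kcnk9* and *Kcng4*, with the mean and the SD of 2 mice; every axis starts at 0 and has its own range. Blue points are WT and red points *Kdm3b*+/- mice, and the groups overlap only in *Kcnc2* and *Kcng4*, where WT mouse 1 lies far above WT mouse 2.

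The voltage-gated genes outside the Kcnc family showed no difference that reached an unadjusted p under 0.05. *Kcnd2*, the A-type channel subunit of granule cells, was at 106 and 131 TPM in WT and 123 and 105 TPM in *Kdm3b*+/- mice, and the groups overlapped with a log2 difference of -0.05 (SE 0.15). *Kcna1*, a low-threshold subunit of axons, was at 72.6 and 88.1 TPM against 74.1 and 78.8 TPM, again with overlap and a log2 difference of -0.07 (SE 0.15). Both of these values changed sign when the table was scaled by median ratios. The ratio of *Kcnc1* to *Kcnd2*, chosen after the values were seen, was 1.77 and 1.67 in WT and 1.36 and 1.40 in *Kdm3b*+/- mice. *Kcng4*, a silent subunit that modifies Kcnb channels, had the second lowest value of the class, but WT mouse 1 decided it. Its levels were 34.2 and 16.4 TPM in WT and 13.4 and 16.9 TPM in *Kdm3b*+/- mice, and the log2 difference of -0.63 (SE 0.29; limma, adjusted p = 0.307) was -0.12 without WT mouse 1, the library with the high sum of Purkinje cell markers. The part of those markers in the *Kcng4* value was not tested. *Kcns3*, another silent subunit, had the highest value of the class at 1.42 and 2.85 TPM in WT and 3.24 and 3.62 TPM in *Kdm3b*+/- mice, where the groups were apart (log2 difference 0.54, SE 0.24; limma, adjusted p = 0.296), and the difference was 0.20 without WT mouse 1.

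The auxiliary subunits had both the member with the highest log2 fold change and a family in which every gene was lower in *Kdm3b*+/- mice. *Kcne1l* (also called Kcne5; chrX:142304753-142306198) encodes a single-pass membrane protein that joins voltage-gated channels. It was at 35.0 and 27.2 TPM in WT and at 51.6 and 55.3 TPM in *Kdm3b*+/- mice. Both *Kdm3b*+/- mice were well above both WT mice, by a ratio of 1.72 between the means and a log2 difference of 0.77 (SE 0.16; limma, unadjusted p = 0.000973, adjusted p = 0.103). The value lay between 0.60 and 0.95 when each library was left out, and its unadjusted p was under 0.05 in all 16 alternative settings. The related *Kcne4* was at 1.05 to 1.81 TPM with overlapping groups, and the other 3 Kcne genes were below the filter.

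The Kcnab family encodes the cytoplasmic beta subunits of the Kcna channels. These subunits help the channels reach the membrane, and some of the subunits speed inactivation. All 3 genes of the family were lower in both *Kdm3b*+/- mice than in either WT mouse at an unadjusted p under 0.05. Over all tested genes, 11.5% were lower at that p and 32.0% were lower without overlap. The family was picked out of the Kcn families after the values were seen. *Kcnab1* (chr3:65109368-65378225) was at 58.3 and 52.3 TPM in WT and at 41.0 and 39.1 TPM in *Kdm3b*+/- mice. Here the mice of each genotype were close to each other, and the log2 difference was -0.45 (SE 0.14; limma, unadjusted p = 0.0104, adjusted p = 0.188). *Kcnab3* (chr11:69326258-69333041) was at 34.7 and 23.7 TPM against 18.8 and 21.1 TPM, a log2 difference of -0.51 (SE 0.19; limma, unadjusted p = 0.0275, adjusted p = 0.246). *Kcnab2* (chr4:152390740-152477549) was at 18.1 and 14.2 TPM against 9.08 and 13.3 TPM, a log2 difference of -0.51 (SE 0.21; limma, unadjusted p = 0.0361, adjusted p = 0.264). In *Kcnab2* and *Kcnab3* the lower WT mouse lay close to the higher *Kdm3b*+/- mouse, and without WT mouse 1 their log2 differences were -0.34 and -0.24; that of *Kcnab2* was -0.25 without *Kdm3b*+/- mouse 1. The family summed to 111 and 90.2 TPM in WT and to 68.8 and 73.5 TPM in *Kdm3b*+/- mice, a ratio of 0.707. The Kcna pore subunits that these proteins join summed to 102 and 117 TPM in WT and 101 and 108 TPM in *Kdm3b*+/- mice, with overlap. After the correction for transcript length and GC content, the log2 differences were 0.76 for *Kcne1l* and -0.36 for *Kcnab1*, with an unadjusted p under 0.05, and -0.25 for *Kcnab2* and -0.36 for *Kcnab3*, with an unadjusted p above 0.05. The unadjusted limma p of *Kcnab2* and *Kcnab3* was also above 0.05 with FPKM, median-ratio scaling or quantile normalization, while that of *Kcnab1* stayed under 0.05.

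None of the most abundant auxiliary subunits reached an unadjusted p under 0.05. *Kcnip4* was at 160 and 140 TPM in WT and 151 and 141 TPM in *Kdm3b*+/- mice, with a log2 difference of -0.04 (SE 0.13). *Kcnip3*, which also acts as a calcium-dependent transcriptional repressor, was at 96.1 and 134 TPM against 77.2 and 105 TPM, and the groups overlapped (log2 difference -0.33, SE 0.20). *Kcnmb4* was at 132 and 127 TPM against 99.6 and 122 TPM, where both *Kdm3b*+/- mice were lower but the log2 difference of -0.23 (SE 0.14; limma, adjusted p = 0.430) did not pass the test.

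In the calcium- and sodium-activated class, the 2 tested members of the Kcnn family went in opposite directions. This family encodes the small-conductance channels that open on intracellular calcium and produce the afterhyperpolarization. *Kcnn2*, the main Purkinje cell member, was at 50.1 and 39.8 TPM in WT and at 61.1 and 61.7 TPM in *Kdm3b*+/- mice. The *Kdm3b*+/- mice were close to each other and above both WT mice, with a log2 difference of 0.45 (SE 0.15; limma, unadjusted p = 0.0169, adjusted p = 0.216), or 0.29 without WT mouse 2. *Kcnn1* (chr8:70842049-70857008) was at 6.45 and 5.13 TPM in WT and at 4.01 and 3.55 TPM in *Kdm3b*+/- mice, below both WT mice by a log2 difference of -0.50 (SE 0.18; limma, unadjusted p = 0.023, adjusted p = 0.236). The ratio of *Kcnn2* to *Kcnn1*, chosen after the values were seen, was 7.76 and 7.77 in WT and 15.2 and 17.4 in *Kdm3b*+/- mice. A ratio of a higher to a lower gene of these data separates the genotypes by construction. The ratio of *Kcnmb4* to *Kcnma1* overlapped, at 10.4 and 15.0 in WT and 13.5 and 16.3 in *Kdm3b*+/- mice. Those of *Kcne1l* to *Kcnab1* and of *Kcnj9* to *Kcnj6* did not overlap. After the correction for transcript length and GC content, the log2 difference was 0.68 for *Kcnn2*, with an unadjusted p under 0.05, and -0.25 for *Kcnn1*, with an unadjusted p above 0.05. *Kcnn2* lies on chromosome 18, the chromosome of the trapped gene, and starts 10.4 Mb past the end of *Kdm3b*. The voltage-gated *Kcng2*, also on chromosome 18, went the other way, at 2.56 and 2.04 TPM in WT and 1.46 and 1.45 TPM in *Kdm3b*+/- mice. Its log2 difference was -0.42 (SE 0.19, limma, adjusted p = 0.303). The part of the position on this chromosome was not tested. *Kcnma1*, the large-conductance channel, was at 12.7 and 8.48 TPM in WT and 7.36 and 7.49 TPM in *Kdm3b*+/- mice (log2 difference -0.44, SE 0.20; limma, adjusted p = 0.307). Its value was -0.17 without WT mouse 1, the mouse with the high Purkinje cell markers, whose part was not tested. *Kcnt1*, a sodium-activated channel, was at 69.0 and 92.6 TPM against 58.4 and 70.5 TPM, and the groups overlapped (log2 difference -0.31, SE 0.18).

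None of the 7 tested inward rectifiers had an unadjusted p under 0.05. *Kcnj9*, with *Kcnj6* and *Kcnj3* one of the G protein-gated channels, was at 131 and 169 TPM in WT and at 113 and 122 TPM in *Kdm3b*+/- mice. Both *Kdm3b*+/- mice were below the WT mice, but the log2 difference of -0.34 (SE 0.15; limma, adjusted p = 0.307) did not pass, and it was -0.15 without WT mouse 2 and -0.084 after the correction for transcript length and GC content. *Kcnj6* was at 38.9 and 50.7 TPM against 49.2 and 41.6 TPM, with overlap and a log2 difference of 0.03 (SE 0.17). *Kcnj3* was at 25.5 and 22.0 TPM in WT and 30.2 and 28.6 TPM in *Kdm3b*+/- mice, so that the 3 genes of this channel group did not share a direction. The strong inward rectifier *Kcnj12* was at 84.4 and 111 TPM against 90.8 and 94.3 TPM, with the *Kdm3b*+/- mice between the WT mice. *Kcnj11*, the pore of the ATP-sensitive channel, was at 12.6 and 15.7 TPM against 18.1 and 18.5 TPM, where the groups were apart (log2 difference 0.36, SE 0.16; limma, adjusted p = 0.307).

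Among the two-pore channels, the abundant leak channels overlapped between genotypes and the lowest tested member did not. *Kcnk1* had a log2 difference of 0.03 (SE 0.14), and the *Kdm3b*+/- mice lay within the range of the WT mice. *Kcnk3*, the acid-sensitive leak channel TASK1, was at 76.6 and 109 TPM in WT and 80.0 and 86.9 TPM in *Kdm3b*+/- mice, and *Kcnk12*, a subunit that is silent on its own, was at 61.1 and 92.5 TPM against 67.7 and 74.4 TPM. In both genes the *Kdm3b*+/- mice again fell between the WT mice. *Kcnk9* (chr15:72512119-72546279), the close relative TASK3 that pairs with TASK1 in granule cells, was at 1.50 and 2.23 TPM in WT and at 0.498 and 0.755 TPM in *Kdm3b*+/- mice. The *Kdm3b*+/- mice were lower by the largest log2 difference of any tested member, -0.81 (SE 0.22; limma, unadjusted p = 0.00467, adjusted p = 0.154). *Kcnk9* passed the filter of 1 TPM through its WT levels, since both *Kdm3b*+/- mice were below 1 TPM. Members low in both genotypes were not tested and are outside this ranking. The gene had no fitted value with FPKM or with a filter of 5 TPM. The fold of its means was 0.335. This exceeds what the log2 difference on the log2(TPM + 1) scale shows, since the added 1 is of the size of these levels. *Kcnk3* exceeded *Kcnk9* 51.0 and 49.0 times in WT and 161 and 115 times in *Kdm3b*+/- mice, a ratio chosen after the values were seen.

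Summed over whole classes, the voltage-gated genes held 585 and 667 TPM in WT and 526 and 520 TPM in *Kdm3b*+/- mice, and the auxiliary subunits 582 and 554 TPM against 492 and 542 TPM. In these 2 classes the *Kdm3b*+/- mice were below the WT mice, by a log2 ratio of -0.26 and -0.13. Of single tested genes, 32.0% were lower without overlap. The voltage-gated sum includes *Kcnc1*, at 188 and 219 TPM in WT against 167 and 147 TPM in *Kdm3b*+/- mice. The auxiliary sum includes the Kcnab family, at 111 and 90.2 TPM against 68.8 and 73.5 TPM. Whether the classes differ without these members was not tested. The ratio of the auxiliary class was -0.066 with median-ratio scaling and -0.067 without *Kdm3b*+/- mouse 1, and that of the voltage-gated class was -0.16 without WT mouse 2. The inward rectifiers (310 and 389 TPM against 321 and 325 TPM), the two-pore channels (799 and 1022 TPM against 943 and 863 TPM) and the calcium- or sodium-activated channels (140 and 148 TPM against 133 and 145 TPM) overlapped. All potassium channel genes together summed to 2433 and 2798 TPM in WT and to 2433 and 2413 TPM in *Kdm3b*+/- mice, also with overlap.

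**Figure D4:**
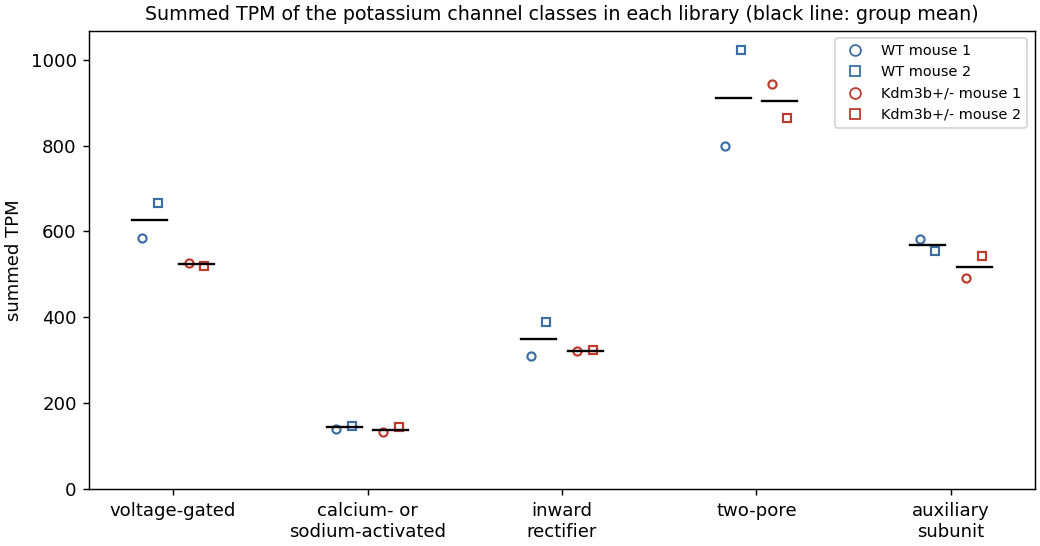
Summed TPM of the 5 classes of potassium channel genes in each library, with a black line at the mean of each genotype (blue, WT; red, *Kdm3b*+/-; circles, mouse 1; squares, mouse 2). The genotypes are apart in the voltage-gated class (585 and 667 TPM against 526 and 520 TPM) and the auxiliary class, and overlap in the others.

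Of the 5 other members, none had an unadjusted p under 0.05. *Kcnq1ot1*, the long RNA antisense to *Kcnq1*, was at 2.47 and 2.58 TPM in WT and 3.28 and 2.87 TPM in *Kdm3b*+/- mice, with a log2 difference of 0.21 (SE 0.18). *Kcnmb4os2* was at 10.1 and 11.2 TPM against 11.5 and 11.8 TPM, while *Kcnmb4os1*, *Kcnd3os* and *Kcnrg* overlapped between genotypes at 0.814 to 2.76 TPM. The spans of 19 potassium channel genes, among them *Kcnmb4*, *Kcnd3* and *Kcnab1*, overlap another gene model, each time on the opposite strand. Whether the reads kept their strand is not given in the sources used here, and without strand the reads of such pairs cannot be told apart.

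Proteins that join or anchor potassium channels but have other names were listed as 20 genes, of which 16 were tested. None was DEX, compared with 0.461% of all tested genes, 2 had an unadjusted p under 0.05 (12.5%, compared with 17.0%), and their median log2 fold change was -0.08, compared with -0.07. *Dpp6*, the membrane partner of Kcnd channels, was at 130 and 166 TPM in WT and 103 and 123 TPM in *Kdm3b*+/- mice, a log2 difference of -0.38 (SE 0.16; limma, unadjusted p = 0.045, adjusted p = 0.283). *Lrrc38*, a gamma subunit of the large-conductance channel, was at 5.13 and 4.41 TPM against 3.19 and 2.83 TPM, a log2 difference of -0.52 (SE 0.18; limma, unadjusted p = 0.0169, adjusted p = 0.216). In both genes the *Kdm3b*+/- mice were below the WT mice. The adapters *Vapa* and *Dlg1*, the other abundant ones, had log2 differences of 0.19 and -0.30 and did not pass.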

How the data were processed

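Libraries were grouped by genotype from the GEO labels, and the labelled tissue is cerebellum. The authors trimmed reads, aligned them with STAR and estimated abundance with StringTie. Versions, genome build and library strand are not given in the sources used here. Each deposited table holds coverage, FPKM and TPM per gene. Deposited coverage is read depth averaged over exons. Deposited FPKM and TPM are likewise levels per length of transcript, with FPKM scaled to the mapped fragments of the library and TPM to a fixed library total. Read counts are not in these columns, so the study's count test was not repeated, and intervals for counting error were not computed. Of the identifiers, 99.6% lay on the chromosome and 90.4% within 1 kb of the start in the RefSeq table of GRCm38.p6, which gave symbols for 24462 of 24532.

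Genes with a mean of at least 1 TPM over the 4 libraries were tested by limma (version 3.58.1, with trend; R 4.3.3; statmod 1.5.0 for robust fits) on log2(TPM + 1), with genotype as the only term. A fold change on this scale understates the change of low genes. Adjusted p-values are those of Benjamini and Hochberg over 13652 genes, and the script was tested on simulated data. The 2 mice of a group are separate animals. Transcript length and GC content were taken from GENCODE transcripts, which covered 94.5% of the tested genes and 54 of the 56 tested members. The tested members had a median transcript length of 3753.5 bases and 53.9% GC, compared with 3364 bases and 49.8% over all tested genes. Tables and figures were made with Python 3.11.15, NumPy 2.4.6, pandas 2.3.3 and Matplotlib 3.10.9.

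The genes named by rule were *Kdm3b*, members with an unadjusted p under 0.05 and no overlap of the groups, the 3 highest by mean TPM in each class, and the 3 highest and 3 lowest log2 fold changes. Further members were named to describe a family or chromosome 18, and some members that enter the counts are not reported by name here. The members, lists and tests were chosen with earlier results of these data known. Alternatives were a pseudocount of 0.1, FPKM, no filter or a filter of 5 TPM, median-ratio scaling, quantile normalization, the highest row per identifier, fits without trend or robust, the replicate number as a block, a correction for length and GC content, and leaving out each library.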

Additional observations from a re-analysis of the deposited data

How the results depend on the processing

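Of the 26 genes named by rule, 18 kept their direction in every one of 16 alternative settings that gave them a value. Among these were all 10 members at an unadjusted p under 0.05. Their groups do not overlap, so leaving out a library could not change their sign. Several other settings keep the fitted value itself. An unadjusted limma p under 0.05 held for 10 of them with a pseudocount of 0.1 and 7 with median-ratio scaling. It held for 5 after the length and GC correction and 3 with no filter. *Kcnk9* had a value in 14 settings, and *Kcnn1* and *Kcns3* in 15. Of 412 fitted values, 27 changed sign. The cause of a change was not tested. DEX genes over the whole table numbered 63 (16 higher, 47 lower), 39 with FPKM, 2 with no filter on low TPM and 37 without trend. Leaving out each library gave 21 to 188, where a lone mouse is assumed to vary like the other group. No potassium channel gene was DEX in these settings, and at an unadjusted p under 0.05 leaving out each library gave 4 to 16 members. The members' median log2 fold change was -0.018 with FPKM and -0.20 to -0.078 when each library was left out. The voltage-gated median was -0.083 with FPKM, -0.11 after the length and GC correction and -0.28 to -0.11 when each library was left out, and the auxiliary median was -0.26 to -0.11. The inward rectifier median ranged from -0.16 to 0.20 and the two-pore median from -0.32 to 0.081 when each library was left out, and the two-pore median was 0.040 after the length and GC correction.

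The replicate numbers are not taken to pair the mice, since the labels state no pairing. Same-number deviations correlated over genes at 0.121, and at 0.0229 after the length and GC correction. With only 2 pairs, these values cannot decide whether the mice were paired. With the number as a replicate block, 600 genes were DEX (173 higher, 427 lower), which is 4.39% of all tested genes. Among them were 2 of the 56 tested members (*Kcne1l* higher, *Kcnc4* lower). An unadjusted limma p under 0.05 was found for 18 of the 56 members (4 higher, 14 lower) and for 23.5% of all tested genes. With the length and GC correction in the same fit as the block, 59 genes (0.457% of those tested) and 0 of 54 members were DEX.

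When each library was left out, the log2 ratio of the summed TPM was -0.35 to -0.16 for the voltage-gated class, -0.21 to -0.067 for the auxiliary class, -0.12 to 0.010 for the calcium- or sodium-activated class, -0.27 to 0.057 for the inward rectifiers and -0.18 to 0.18 for the two-pore class. With FPKM and with median-ratio scaling it was 0.013 and 0.018 for the calcium- or sodium-activated class, 0.058 and 0.065 for the two-pore class, and -0.071 and -0.066 for the auxiliary class.

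Single genes whose log2 difference changed sign had groups that overlap. With FPKM, it was 0.010 for *Kcnd2*, 0.0011 for *Kcnj12* and 0.029 for *Kcnip4*. With median-ratio scaling, it was 0.016 for *Kcnd2*, 0.0055 for *Kcna1*, 0.0072 for *Kcnj12* and 0.035 for *Kcnip4*. After the length and GC correction, with or without the block, it was 0.035 for *Kcnd2*, 0.11 for *Kcna1*, 0.084 for *Kcnj12* and 0.12 for *Kcnk3*. When each library was left out, it ranged from -0.21 to 0.099 for *Kcnd2*, -0.20 to 0.072 for *Kcna1*, -0.26 to 0.13 for *Kcnj12*, -0.16 to 0.21 for *Kcnj6*, -0.12 to 0.19 for *Kcnk1*, -0.39 to 0.12 for *Kcnk3*, -0.38 to 0.21 for *Kcnk12* and -0.14 to 0.063 for *Kcnip4*.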
